A study of Rattus norvegicus with 8 samples.

Results

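Alpha-2-macroglobulin (A2m), its relative pregnancy zone protein (Pzp), their shared receptor Lrp1 and 5 further genes of plasma proteins (Hp, Cp, Tf, Ttr and Alb) were examined in rat ovary. These 8 genes were chosen by name, with their differences between the groups already known, and comprised 8 of the 26214 gene names and 11 of the 30367 probes on the array. RNA came from ovaries of female rats aged 28 days, measured on 1-colour Agilent arrays. By the labels, the 4 arrays labelled PMSG came from rats injected under the skin at 26 days with PMSG, a gonadotropin from the serum of pregnant mares that acts mainly like follicle-stimulating hormone, at 50 IU in 0.2 ml of a phosphate buffer with albumin. By the same labels, the 4 arrays labelled control came from rats given 0.2 ml of the buffer alone, although their titles speak of no treatment. Ovaries of both groups were taken 48 h after the injection, and the strain and the number of animals behind each array are not given in the sources used here. The p-values below therefore measure only the spread between these samples. Several hormone-responsive genes, given below, run against the direction generally known for this treatment.

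Alpha-2-macroglobulin is a large secreted inhibitor that traps proteases of all classes within its cage and then exposes a site bound by Lrp1, an endocytic receptor that carries the complex into the cell. In the rat it is known as an acute-phase protein of the liver, switched on through interleukin-6 and STAT3, and as a gene of luteal cells that responds to prolactin through STAT proteins. The other genes encode carriers and scavengers that circulate in plasma: haptoglobin binds free hemoglobin, ceruloplasmin carries copper and oxidises iron, transferrin carries iron, transthyretin carries thyroid hormone and retinol-binding protein, and albumin carries many small ligands. Most are made chiefly by the liver, and some are also known from ovarian cells.

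Which stretch of each transcript was read matters here, because A2m and Pzp are related genes. The probe sequences of both, of Hp and of Lrp1 are given below, 5′ to 3′, because the results turn on whether these transcripts were read separately. Capitals mark 1 of the longest runs of bases that the A2m and Pzp probes share (another of the same length, gagaa, is left in lower case), and in Hp a final TAG stop codon in the frame of the printed probe; the Lrp1 probe has no capitals.
A2m: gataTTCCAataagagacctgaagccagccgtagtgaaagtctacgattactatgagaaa
Pzp: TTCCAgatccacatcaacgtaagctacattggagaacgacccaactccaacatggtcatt
Hp: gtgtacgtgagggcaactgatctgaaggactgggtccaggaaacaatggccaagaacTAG
Lrp1: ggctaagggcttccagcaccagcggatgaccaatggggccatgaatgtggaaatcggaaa
No run shared by the A2m and Pzp probes was longer than 5 bases, and 16 of their 60 positions held the same base when they were laid side by side without a shift. Across all 11 probes of the 8 genes, the longest run shared with a probe of another gene name was 12 to 14 bases. The A2m probe lay at chr4:158152445-158152504 on the plus strand of build rn4. The Pzp probe lay on the minus strand at chr4:165508554-165508999, where its 60 bases spanned 446 genomic bases and so crossed at least 1 gap. The Hp probe lay at chr19:39443156-39443215 and the Lrp1 probe at chr7:67521714-67521773, both on the minus strand. Exon annotation of build rn4 was not used here.

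A value is the log2 processed signal of a gene's brightest probe minus the 75th percentile of its array, so that 0 equals the array's 75th percentile. All 8 genes were well above background on enough arrays to enter the fit across 25303 probes. The contrast of PMSG-labelled and control-labelled arrays had chosen the genes, so their differences are described without a test. In limma's fit 6 of the 8 had a Benjamini-Hochberg adjusted p under 0.05, against 34.5% of all 21926 genes tested, and so had 9 of the 11 probes, against 34.2% of all 25303. A2m, Pzp, Hp and Ttr were lower on the PMSG-labelled arrays, where 16.5% of genes were called lower, and Cp and Tf were higher, where 18% were called higher. The same 6 genes showed no overlap between the labels, which held for 37% of all genes. With each array centred on its median, 1 of the 8 was called higher and 4 lower, and over all genes the calls went from 3954 higher and 3608 lower to 2587 and 4730. The median difference was -1.54 on the log2 scale over the 8 genes and 0.12 over all genes tested. Differences of -3 or below were found for 45 genes, or 0.205% of those tested, and 4 of the 8 genes lay among them, at rank 7 (A2m), 11 (Pzp), 20 (Hp) and 35 (Ttr) from the most negative.

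**Figure D1:**
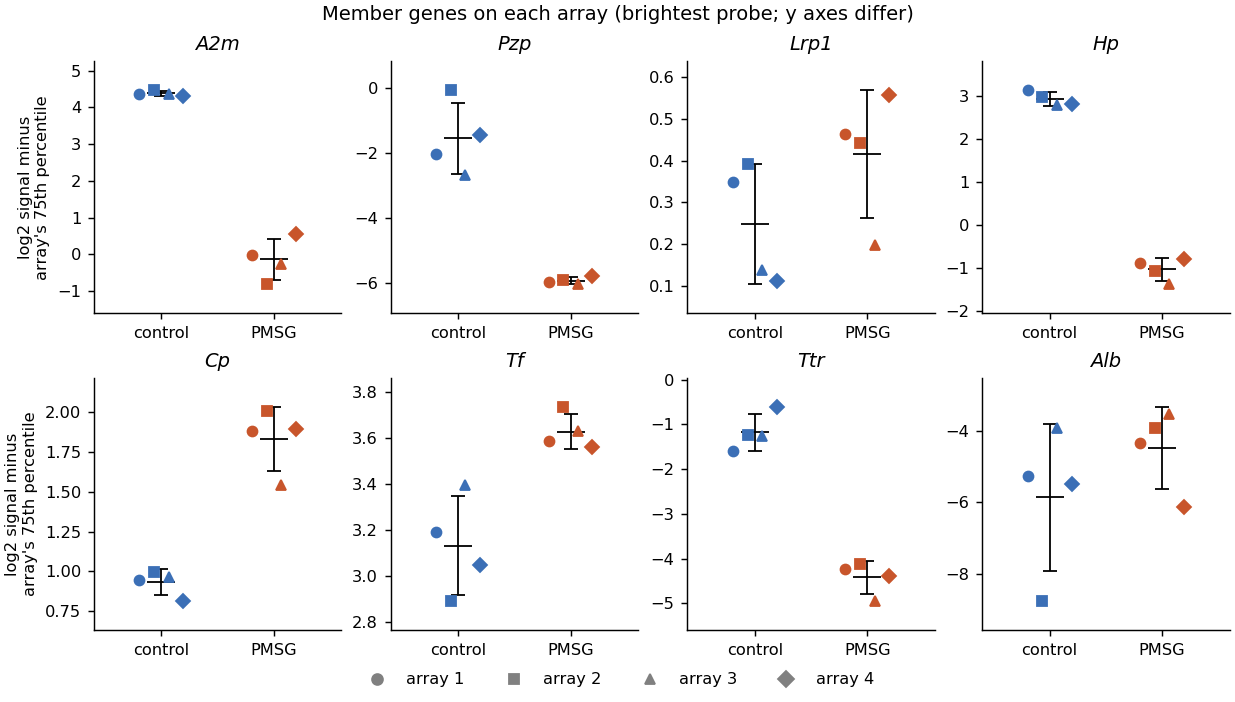
Level of each gene on each array (y axis, log2 signal minus the array's 75th percentile; the y axes differ between panels) for the 4 control-labelled (blue) and 4 PMSG-labelled (orange) arrays, with marker shape giving the array number and black bars the mean ± SD. A2m, Pzp, Hp and Ttr lie lower and Cp and Tf higher on the PMSG-labelled arrays with no overlap, while the labels overlap for Lrp1 and Alb.

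Among the protease inhibitors, A2m stood at 4.36, 4.47, 4.36 and 4.32 on the control-labelled arrays and at -0.01, -0.82, -0.25 and 0.54 on those labelled PMSG, each in the order of array numbers 1 to 4, which is kept below. The control-labelled values lay within 0.15 of each other, while the PMSG-labelled values ranged over 1.36, and the gap between the labels was 3.78. In processed signal, before scaling, this was 20647 to 23292 on the control-labelled arrays and 582 to 1572 on the PMSG-labelled arrays, all well above background and none saturated. The means were 4.38 ± 0.06 and -0.14 ± 0.56 (SD, n = 4 each), a difference of -4.51 (SE 0.25), or 22.8-fold higher on the control-labelled arrays. The spread of A2m on the control-labelled arrays was narrow, since 11.4% of tested genes had a smaller SD there, and wide on the PMSG-labelled arrays, where 83.8% of genes had a smaller SD. PMSG-labelled array 4 was the highest of its label and array 2 the lowest. The labels lay on both rows of the slide, and the difference was -4.93 in slide row 1 and -4.10 in slide row 2. In bulk tissue, fewer cells of a type and less RNA per cell cannot be told apart, here or for any gene below.

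A further A2m probe, 844 bases away at chr4:158153349-158153408, gave a difference of -4.45 (SE 0.25). It stood at 4.18, 4.33, 4.25 and 4.17 on the control-labelled arrays, against -0.09, -0.81, -0.43 and 0.49 on those labelled PMSG. The order of the PMSG-labelled arrays was therefore the same from both probes. Once each probe was centred on its label means, the 2 probes differed by at most 0.11 on any array.

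Pzp, the gene also listed in RefSeq as A1m, encodes a protease inhibitor built like A2m. It stood at -2.03, -0.08, -2.67 and -1.47 on the control-labelled arrays, against -5.97, -5.90, -6.04 and -5.78 on those labelled PMSG. The labels did not overlap, yet the spread ran opposite to that of A2m: the control-labelled arrays covered a 6.03-fold range and the PMSG-labelled arrays a 1.20-fold range. Control-labelled array 2 was the highest and array 3 the lowest. The SD of 1.104 on the control-labelled arrays exceeded that of 98.6% of tested genes, whereas the SD of 0.11 on the PMSG-labelled arrays exceeded that of 12.1%. The difference was -4.36 (SE 0.48), or 20.5-fold, and it was -5.20 in slide row 1 and -3.52 in slide row 2. The processed signals on the PMSG-labelled arrays were 11.7 to 19.8, near the lowest signal called well above background on those arrays (9.89 to 13.7), so the low level was read close to the limit of the scanner. With a normexp background correction, which adds an offset of 50 and compresses low signals, the difference was -2.37.

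Lrp1 encodes the endocytic receptor that clears complexes of A2m with proteases. It stood at 0.35, 0.39, 0.14 and 0.11 on the control-labelled arrays, against 0.46, 0.44, 0.20 and 0.56 on those labelled PMSG. The labels overlapped, with PMSG-labelled array 3 below control-labelled arrays 1 and 2. The difference was 0.17 (SE 0.12), and it was -3.22e-05 when the arrays were centred on their medians. The mean difference of the receptor transcript was within the range of the control-labelled arrays (0.28), while that of its ligand A2m was 22.8-fold.

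Among the carriers and scavengers, Hp stood at 3.15, 2.98, 2.81 and 2.82 on the control-labelled arrays, against -0.87, -1.07, -1.38 and -0.79 on those labelled PMSG. Every control-labelled array lay at least 3.60 above every PMSG-labelled array. The difference was -3.96 (SE 0.15), or 15.6-fold, with -4.12 in slide row 1 and -3.81 in slide row 2. Its spread was ordinary for these arrays: 50.7% of genes had a smaller SD on the control-labelled and 49.2% on the PMSG-labelled arrays.

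Ttr (probe at chr18:12413621-12413680, plus strand) stood at -1.60, -1.24, -1.26 and -0.61 on the control-labelled arrays, against -4.22, -4.12, -4.95 and -4.38 on those labelled PMSG. Control-labelled array 4 was the highest and PMSG-labelled array 3 the lowest, and the labels lay 2.53 apart at their nearest. The difference was -3.24 (SE 0.25), or 9.47-fold, and -2.18 with the normexp correction.

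Cp encodes ceruloplasmin, the copper-carrying ferroxidase, and was read by 3 probes at separate places along chromosome 2, all on the plus strand. The brightest (chr2:105148774-105148833), which the array files assign to transcript variant 2, stood at 0.95, 1.00, 0.97 and 0.81 on the control-labelled arrays, against 1.88, 2.01, 1.54 and 1.89 on those labelled PMSG. All 4 PMSG-labelled arrays were higher, by 0.90 (SE 0.12) or 1.86-fold on average. The probe assigned to transcript variant 1 (chr2:105135264-105135323) stood at -0.42, -0.45, -0.29 and -0.51 against 0.84, 0.46, 0.18 and 0.79, a difference of 0.98 (SE 0.16). The dimmest probe (chr2:105129670-105129729) stood at -4.45, -4.49, -4.49 and -4.29 against -3.84, -3.53, -4.32 and -3.93, a difference of 0.53 (SE 0.16). On this probe the labels overlapped, because PMSG-labelled array 3 lay below control-labelled array 4. PMSG-labelled array 3 was the lowest of its label on all 3 probes.

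**Figure D2:**
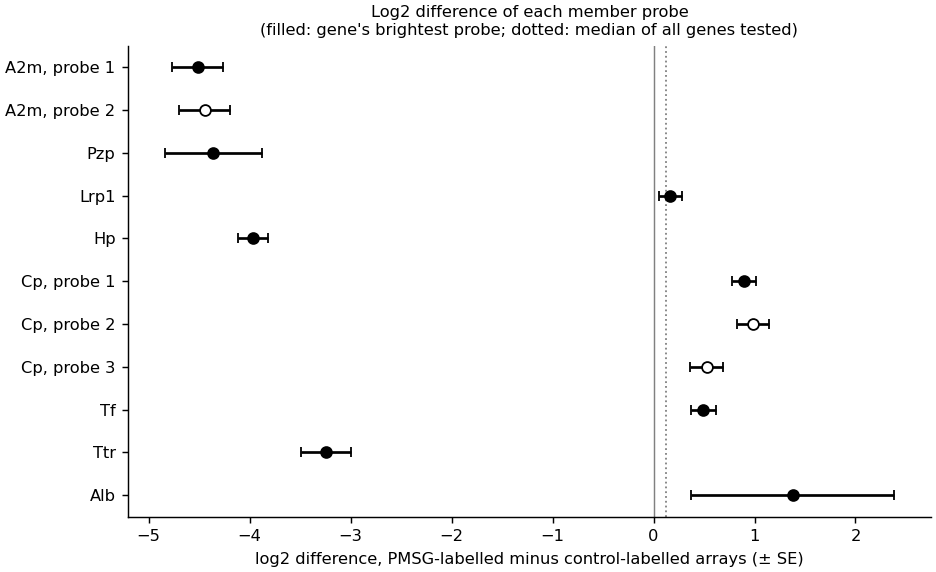
Log2 difference (x axis, PMSG-labelled minus control-labelled arrays, ± SE, 4 arrays each) of each of the 11 probes; filled points are the brightest probe of a gene, open points its other probes, and the dotted line is the median of all genes tested, 0.12. The 2 A2m probes lie together near -4.5, the 3 Cp probes between 0.53 and 0.98, and the Alb interval is the widest.

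Tf (transferrin, probe at chr8:108217778-108217837, minus strand) stood at 3.19, 2.89, 3.396 and 3.05 on the control-labelled arrays, against 3.58, 3.73, 3.63 and 3.56 on those labelled PMSG. The highest control-labelled array, number 3, lay 0.16 below the lowest PMSG-labelled array. The difference was 0.49 (SE 0.12), or 1.41-fold, and was smaller than the range within the control-labelled arrays, which was 0.50. It was 0.71 in slide row 1 and 0.28 in slide row 2. With each array centred on its median it was 0.33, and its adjusted p in limma was then above 0.05.

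Alb (probe at chr14:19126980-19127039, minus strand) stood at -5.27, -8.74, -3.93 and -5.50 on the control-labelled arrays, against -4.35, -3.92, -3.55 and -6.12 on those labelled PMSG. It was not well above background on control-labelled array 2, and the control-labelled arrays spanned a 28.0-fold range. The labels overlapped, and the difference of 1.38 (SE 1.00) went in opposite directions in the slide rows, 3.39 in row 1 and -0.63 in row 2. The SD of Alb on the control-labelled arrays exceeded that of 99.9% of tested genes.

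The arrays that were high or low for Alb were nearly the same as for adipocyte markers, a set of 8 genes that includes Adipoq, Cfd, Retn and Fabp4. The summed level of these markers, in multiples of the 75th-percentile signal, was 36.1, 10.1, 84.3 and 31.8 on control-labelled arrays 1 to 4 and 50.2, 62.5, 93.8 and 29.2 on PMSG-labelled arrays 1 to 4. Alb and the sum had the same 3 lowest arrays (control-labelled 2 and 4 and PMSG-labelled 4) and the same highest array (PMSG-labelled 3). Within the control label, Tf ran in the order of the adipocyte sum as well, lowest on array 2 and then 4, 1 and 3. Pzp ran in the opposite order, highest on array 2 and then 4, 1 and 3, which was the order of the summed granulosa markers (176.8, 219.7, 125.0 and 205.9 on control-labelled arrays 1 to 4). These orders were noticed after the values were seen, and their part in the results was not tested.

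The 5 related gene lists were written with earlier results of these data known and are described by counts. Over all 21926 genes tested, 18% were called higher and 16.5% lower. These shares are to be set beside each count of the lists and marker sets below. Adjusted p-values in the paragraphs below are from limma with Benjamini-Hochberg adjustment over all 25303 probes.

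Of the macroglobulin and thioester relatives, 7 of 14 listed genes had a probe by name and 5 were tested: 2 rose, none fell, and the median difference was 0.78. Cpamd8, which shares the macroglobulin fold, rose by 1.06 (SE 0.27, adjusted p 0.0170), and the complement gene C4a rose by 0.86 (SE 0.25, adjusted p 0.0308). The complement genes C3 (0.78, SE 0.38, adjusted p 0.146) and C5 (0.25, SE 0.13, adjusted p 0.180) did not pass. The murinoglobulin genes Mug1 and A1i3, single-chain relatives of A2m that the rat liver secretes, were not well above background on enough arrays for a test, and Mug2 differed by 0.23 (SE 0.25, adjusted p 0.478). The Mug1 and nearer A1i3 probes differ at only 5 of 60 positions and may read each other's transcripts. The count of 2 was not firm: it was 0 without control-labelled array 4, where the adjusted p of Cpamd8 was 0.0502, and 3 without control-labelled array 3. It was 1 without control-labelled array 1 or 2, or without PMSG-labelled array 1, 2 or 3.

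C4a had the same highest and lowest control-labelled arrays as the adipocyte markers: 4.33, 3.63, 4.76 and 4.17 on control-labelled arrays 1 to 4, against 4.996, 5.33, 5.32 and 4.68 on the PMSG-labelled arrays. The labels overlapped for it, and the part of the adipocyte markers was not tested.

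Around Lrp1, all 23 listed genes of related receptors and their partners were on the array and 22 were tested, of which 4 rose and 5 fell, with a median of -0.19. Cd47, a surface protein that can associate with Lrp1 and its partners, fell by 1.22 (SE 0.11, adjusted p 0.000204), while its other probe showed -0.60 (adjusted p 0.0333). Lrp3 rose by 1.01 (SE 0.15, adjusted p 0.00135). Dab1, an adaptor that binds the tails of these receptors, was well above background on 0 control-labelled and 4 PMSG-labelled arrays. In the main values it was at least 1.28-fold higher on the latter. Its fitted difference of 1.40 (adjusted p 0.00349) was 0.30 (adjusted p 0.0518) with the normexp correction and became -0.15 in the authors' deposited values. The chaperone of the family, Lrpap1, rose by 0.59 (SE 0.09, adjusted p 0.00157).

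**Figure D3:**
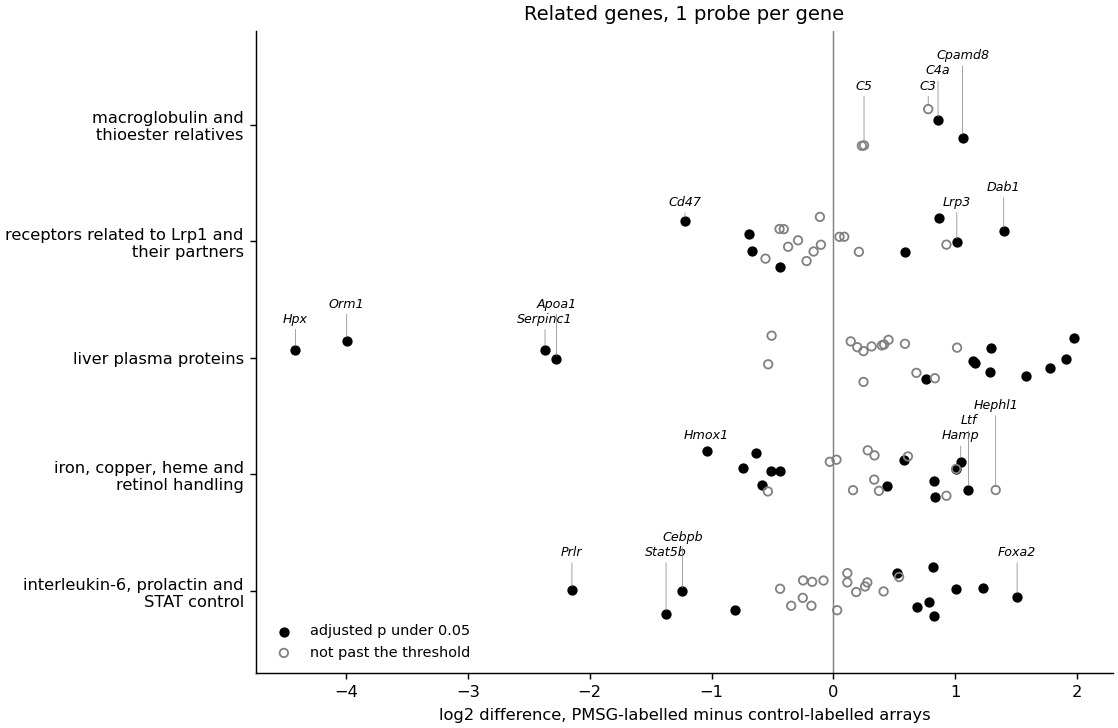
Log2 difference (x axis, PMSG-labelled minus control-labelled arrays) of each tested gene in the 5 lists (rows; vertical scatter within a row has no meaning); filled points have an adjusted p under 0.05 in limma and open points do not, and the 4 genes with the largest difference per list are named (3 for the receptors, where 1 gene is not drawn). Hpx and Orm1 lie near -4, apart from the other liver plasma protein genes, 9 of which rose.

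Of 38 other genes of liver plasma proteins, 37 were on the array and 27 were tested: 9 rose, 4 fell and 14 did not pass, with a median of 0.45 against 0.12 over all genes. The 4 that fell included both of the largest differences on any list. Hpx encodes hemopexin, the plasma carrier of free heme. It stood at 0.55, -0.43, -0.70 and -1.02 on the control-labelled arrays, against -4.61, -4.85, -4.46 and -5.34 on those labelled PMSG, and fell by 4.42 on the log2 scale (SE 0.34, adjusted p 0.000113). Orm1 encodes the acute-phase protein orosomucoid. It stood at -0.55, -1.15, 0.17 and -0.65 against -4.13, -5.43, -3.92 and -4.69, and fell by 3.99 (SE 0.38, adjusted p 0.000250). Neither gene overlapped between the labels, and in the main fit their differences were of the size seen for Hp (-3.96). With the normexp correction, which compresses low signals, they were -3.05 for Hpx and -2.79 for Orm1, against -3.80 for Hp. Apoa1, the main protein of high-density lipoprotein, fell by 2.27 (SE 0.28, adjusted p 0.000669), and its difference was -0.98 with the normexp correction.

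Serpinc1, the gene of antithrombin, stood at -5.11, -2.51, -2.42 and -5.65 on the control-labelled arrays, against -5.47, -6.41, -6.17 and -7.13 on those labelled PMSG. The labels overlapped, since control-labelled array 4 lay below PMSG-labelled array 1. Its difference of -2.37 (SE 0.79) had an adjusted p of 0.0490. That p was 0.117 without control-labelled array 2 and 0.109 without array 3. A second probe of the gene was above background on no array.

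The genes of this list that rose included Vtn, Afp and F2, encoding vitronectin, alpha-fetoprotein and prothrombin. Vtn rose by 1.97 (SE 0.14, adjusted p 9.03e-05), Afp by 1.91 (SE 0.25, adjusted p 0.000875) and F2 by 1.78 (SE 0.21, adjusted p 0.000580). In the main fit the list therefore held large differences in both directions. Afp and F2 were read at low levels, with control-labelled means of -4.34 and -5.44. Their differences with the normexp correction are not given here. Agt, the gene of angiotensinogen, had the same lowest and highest arrays as Alb: 0.76, -1.67, 2.08 and 0.81 on the control-labelled and 1.85, 1.83, 2.25 and 0.11 on the PMSG-labelled arrays, a difference of 1.01 (SE 0.79, adjusted p 0.342). Genes of the list without enough signal for a test numbered 10, among them Apoh, Gc and F9.

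Hepatocyte markers were set beside these values, since liver is the main known source of the proteins. Of 12 such genes, 10 were tested, 3 rose and none fell. Those that rose were F2 (1.78), Hpd (1.68, SE 0.17, adjusted p 0.000295) and Serpina1 (0.76, SE 0.15, adjusted p 0.00549). Of the 12, 8 were above background on all arrays, and 2, Tat and Slc10a1, on no array. The summed level of the 12 genes was 5.08 to 5.31 on the control-labelled arrays and 5.12 to 8.03 on the PMSG-labelled arrays. It was higher than on any control-labelled array on PMSG-labelled arrays 1, 2 and 3. The sum rested mostly on Ahsg (fetuin A), at 2.28 ± 0.02 and 2.60 ± 0.27. The liver plasma protein list shares Apoa2, Serpina1, F2 and Ahsg with these markers, and the part of liver cells in any of these levels was not tested.

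Hp and Orm1 are also known from neutrophil granules. Of 10 neutrophil markers, 9 were tested, 2 rose and 1 fell. The markers that rose were Np4, a defensin gene, by 1.52 (SE 0.32, adjusted p 0.00765) and Ltf, the lactoferrin gene, by 1.11 (SE 0.25, adjusted p 0.00962). The marker that fell was S100a8, a granulocyte calcium-binding protein. It stood at -3.01, -1.06, -2.38 and -3.62 on the control-labelled and -4.44, -5.48, -4.01 and -4.01 on the PMSG-labelled arrays, a difference of -1.97 (SE 0.56, adjusted p 0.0278). Ngp was above background on no array, and the summed level of the markers overlapped, at 0.696 to 1.53 against 0.953 to 1.42. The part of neutrophils in the level of Hp or Orm1 was not tested. Macrophage markers, with 2 of 7 called higher and none called lower, summed to 4.63 to 6.04 on the control-labelled and 6.86 to 8.02 on the PMSG-labelled arrays. Aif1 made the largest part of this sum and rose by 0.68 (SE 0.13, adjusted p 0.00444), and Cd68 rose by 0.51 (SE 0.16, adjusted p 0.0398). Of the genes that did not pass, Emr1 (0.73) and Csf1r (0.29) were higher, and Cd163 (-0.54), Mrc1 (-0.36) and Cd14 (-0.29) lower.

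Most luteal markers fell with the 4 lower genes. Of 10 genes listed as luteal markers, 8 fell and none rose, with a median of -2.45. Their summed level was 293 to 334 on the control-labelled and 119 to 178 on the PMSG-labelled arrays. On the PMSG-labelled arrays the sum rested mostly on Hsd3b1. That gene stood at 6.97 ± 0.10 on the control-labelled and 7.04 ± 0.23 on the PMSG-labelled arrays, a difference of 0.07 (SE 0.13, adjusted p 0.719). Star, which brings cholesterol into mitochondria, fell by 2.75 (SE 0.54, adjusted p 0.00541), Cyp11a1, which cleaves its side chain, fell by 3.36 (SE 0.31, adjusted p 0.000232), and the LH receptor gene Lhcgr fell by 1.93 (SE 0.27, adjusted p 0.00114). These directions run against the one generally known for gonadotropin treatment, so every direction here is that of the array labels. Whether the labels of the groups were exchanged was not tested; if they were, every direction and rank given here would turn around. Of 7 granulosa markers, Amh rose by 3.03 (SE 0.29, adjusted p 0.000261) and Inhbb fell by 0.57 (SE 0.19, adjusted p 0.0478). Whether the luteal markers stand for luteal cells in ovaries of this age was not tested. Nor was it tested whether the differences of A2m, Pzp, Hp and Ttr belong to luteal cells.

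**Figure D4:**
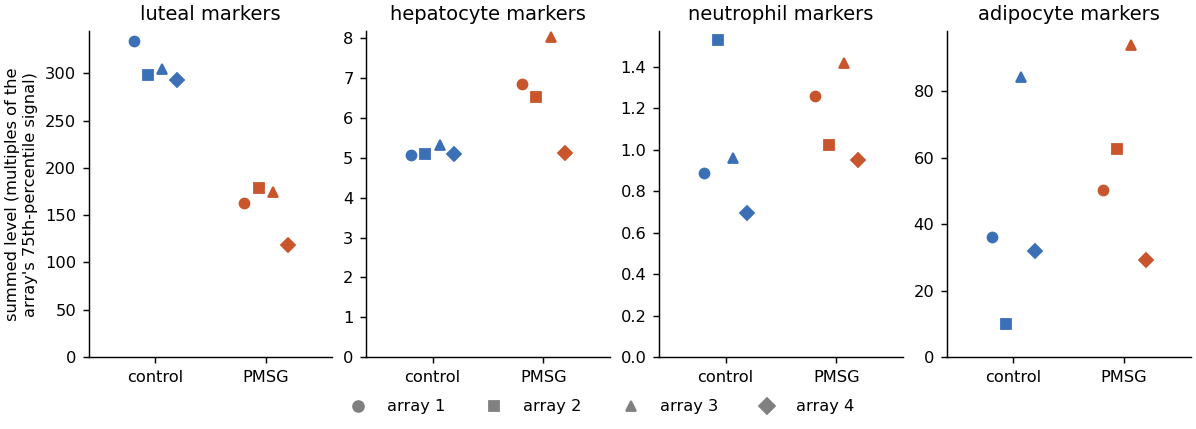
Summed level (y axis, multiples of the array's 75th-percentile signal, from 0) of luteal, hepatocyte, neutrophil and adipocyte markers on each control-labelled (blue) and PMSG-labelled (orange) array; marker shape gives the array number. The luteal sum is 293 to 334 on the control-labelled and 119 to 178 on the PMSG-labelled arrays, while the adipocyte sum ranges from 10.1 to 93.8 with overlap.

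Oviduct and surface epithelium markers moved the other way, with 6 of 10 higher and none lower. They summed to 16.9 to 22.2 on the control-labelled and 24.3 to 38.4 on the PMSG-labelled arrays. Of 7 endothelial markers 1 rose and 3 fell, and the sum was 20.2 to 23.8 on the control-labelled and 16.8 to 18.3 on the PMSG-labelled arrays. That sum rested mostly on Kdr, which fell by 0.43 (SE 0.10, adjusted p 0.00948). Tek and Flt1 fell by 1.20 and 1.04, Vwf rose by 0.50 (SE 0.11, adjusted p 0.00907), and Pecam1, Cdh5 and Emcn did not pass. The part of either cell type in the higher Cp and Tf or in the lower genes was not tested.

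Genes that handle the cargo of Hp, Cp, Tf and Ttr were all on the array: of 25 listed and tested, 7 rose and 6 fell, with a median of 0.34. Among the iron genes Ltf, the lactoferrin gene related to Tf, rose by 1.11 (SE 0.25, adjusted p 0.00962), although it is also a neutrophil marker. Hamp, the gene of the iron hormone hepcidin, rose by 1.04 (SE 0.15, adjusted p 0.00150). Tfrc, the receptor through which cells take up transferrin, fell by 0.58 (SE 0.17, adjusted p 0.0295), and Aco1, an iron sensor that binds RNA, fell by 0.51 (SE 0.08, adjusted p 0.00182).

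Among the heme and copper genes, Hmox1, the heme oxygenase that breaks down heme, fell by 1.04 (SE 0.18, adjusted p 0.00325). Heph, a membrane-bound ferroxidase related to Cp, rose by 1.01 (SE 0.13, adjusted p 0.000878). Its relative Hephl1 differed by 1.33 (SE 0.60, adjusted p 0.121) and was above background on 1 control-labelled and 3 PMSG-labelled arrays. Its adjusted p was 0.0249 without control-labelled array 1 and 0.0330 without PMSG-labelled array 4. The hemoglobin-haptoglobin receptor gene Cd163 differed by -0.54 (SE 0.28, adjusted p 0.164), while its ligand's gene Hp lay 15.6-fold apart between the labels. Rbp4, whose protein travels with transthyretin, rose by 1.29 (SE 0.38, adjusted p 0.0295) where Ttr was lower by 3.24 on the log2 scale.

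Of the genes of interleukin-6, prolactin and STAT signalling, 28 were listed and 27 tested: 8 rose, 4 fell, and the median was 0.11. With each array centred on its median, 4 rose and 5 fell and the median was -0.05. The prolactin receptor gene Prlr, also a luteal marker, stood at -0.32, -0.77, -0.67 and -0.76 on the control-labelled and -2.50, -2.84, -2.35 and -3.42 on the PMSG-labelled arrays. It fell by 2.15 (SE 0.24, adjusted p 0.000435). Stat5b, a transcription factor downstream of that receptor, fell by 1.37 (SE 0.15, adjusted p 0.000385), while Stat5a differed by -0.08 (SE 0.23, adjusted p 0.797). Prl, the gene of prolactin itself, rose by 1.23 (SE 0.22, adjusted p 0.00342) and was well above background on 1 control-labelled and 4 PMSG-labelled arrays. The part of these genes in the level of A2m was not tested. Cebpb, a factor known to act on acute-phase genes, fell by 1.24 (SE 0.19, adjusted p 0.00173), and Cebpd fell by 0.81 (SE 0.11, adjusted p 0.00112).

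Among the genes of the interleukin-6 family, Il6 was above background on no array, Stat3 differed by -0.44 (SE 0.17, adjusted p 0.0738), and the receptor subunit gene Il6st rose by 0.52 (SE 0.14, adjusted p 0.0225). The receptor genes Il11ra1 and Lifr rose by 0.82 (SE 0.13) and 0.79 (SE 0.16). The feedback genes Socs3 (0.26, SE 0.24) and Cish (0.28, SE 0.25) did not pass. Foxa2, a factor of liver and epithelial cells, rose by 1.51 (SE 0.30, adjusted p 0.00556).

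The genes whose pattern over the 8 arrays was most like that of A2m, by Pearson r among 19985 genes above background on all arrays, were Bag1 (0.997), Arl5a (0.996), Il1rl1 (0.996), Rtn3 (0.995) and Kdelr1 (0.994). Their differences ran from -0.52 for Kdelr1 to -4.75 for Il1rl1. Hp was at rank 23 with 0.991, Ttr at 0.963 and Pzp at 0.949, while Lrp1 stood at -0.49, Tf at -0.89 and Cp at -0.95. These values mostly restate the difference between the labels. After each array was centred on the mean of its label, the most like were Lxn (0.970), Tpmt (0.968), Zdhhc3 (0.968), Nmt1 (0.967) and the unnamed transcript TC613087 (0.966). On that measure Hp was at 0.50, Lrp1 at 0.36 and Pzp at 0.13, and Cp (-0.07), Ttr (-0.13) and Tf (-0.37) lay below 0. This measure pools both labels, and A2m varied mostly on the PMSG-labelled arrays while Pzp varied mostly on the control-labelled arrays. Its low value for Pzp therefore cannot show how far both genes varied together within a label. Nor do these values rank Hp, Pzp and Ttr by their likeness to A2m within each label, which was not tested.

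The genes near A2m, Pzp and Hp on rn4 were described to see how far the lower level reached along the chromosome. Over all genes tested, 18% were called higher and 16.5% lower. Within 1 Mb of the A2m probe 23 genes were tested, 9 rose and 3 fell, and their differences ran from -0.82 (Atp6v1e1) to 1.83 (Dppa3). The relative Mug2, 279 kb away, differed by 0.23, and Cpamd8, placed 391 kb away, rose by 1.06. The coordinates given for the Cpamd8 probe, chr4:158543846-158543866, cover fewer bases than the probe's 60, so its place beside A2m is uncertain. Within 1 Mb of Pzp 24 genes were tested, 2 rose and 9 fell, from -1.61 (Clec2d) to 1.33 (RGD1565709). Within 1 Mb of Hp 16 genes were tested, 5 rose and 2 fell, from -0.46 (Dhodh) to 0.99 (Marveld3), and Txnl4b, at a distance of -1.30 kb, rose by 0.38 (SE 0.11, adjusted p 0.0278). No neighbour tested in these 3 windows had a difference as negative as -2.

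**Figure D5:**
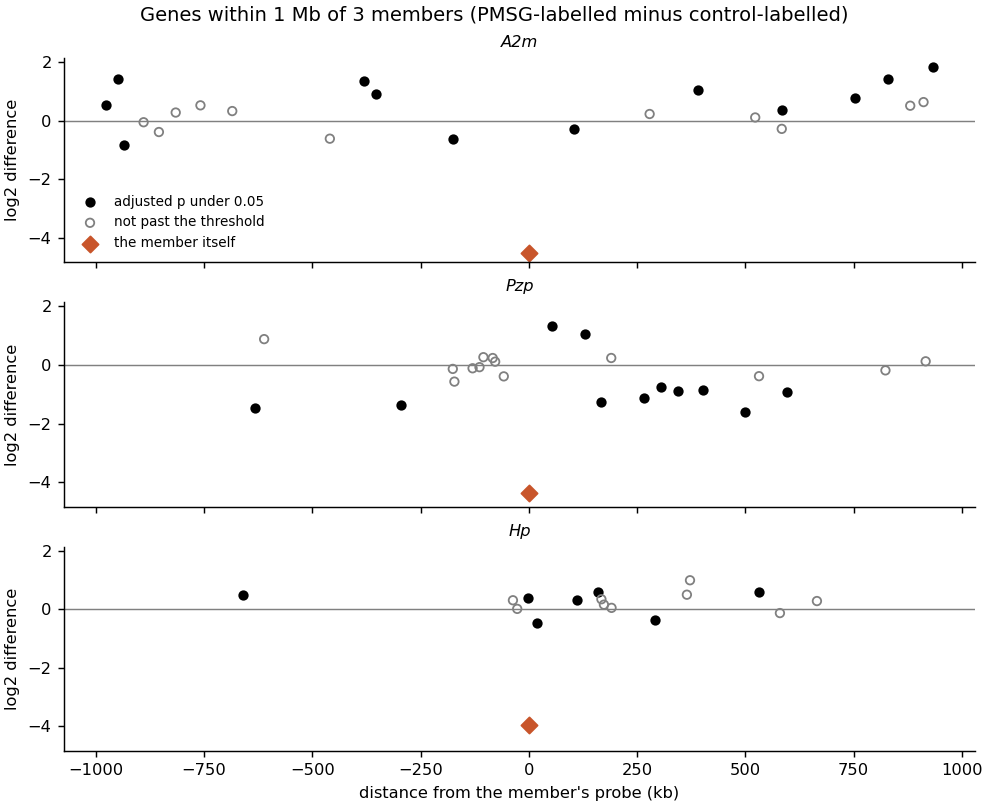
Log2 difference (y axis, PMSG-labelled minus control-labelled arrays) of the genes tested within 1 Mb of A2m, Pzp and Hp, against distance from the probe in kb (x axis); diamonds are A2m, Pzp and Hp, filled points have an adjusted p under 0.05 in limma and open points do not. The neighbours lie between -1.61 and 1.83, above the diamonds at -4.51, -4.36 and -3.96.

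Promoters from RefSeq (GRCr8; 250 bases before to 50 after the start) were matched for 6 of the 8 genes, Pzp, Lrp1, Cp, Tf, Ttr and Alb. A STAT motif, TTCNNNGAA, searched on both strands, was in 0 of these 6 and in 8.87% of all 33469 promoters. A C/EBP motif, TTGCNNAA, also searched on both strands and allowed to overlap the former, was in 10.6% of all promoters. It was found in those of Cp (position -72 from the start), Tf (-115) and Alb (-144). These matches are descriptions of the letters only. The 4 lower genes were represented here by Pzp and Ttr, neither of which held either motif in this window.

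Across the 8 arrays, the 75th percentile of signal was 769 to 1103, lowest on PMSG-labelled array 3, and 80.8% to 84.6% of probes were well above background. All arrays were on 1 slide. Pairs of arrays of 1 label correlated at r = 0.977 to 0.993 over all tested probes and pairs across labels at 0.960 to 0.972.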

How the data were processed

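The deposited scanner files hold the intensity of each spot as read by Agilent Feature Extraction (version 11.5.1.1 per the file headers), detrended and with surrogates in place of dim values; coordinates are on build rn4. Total RNA (500 ng, per the labels' protocols) was copied from an oligo-dT primer and labelled with Cy3. A deposited log2 table, found to be scaled to the 75th percentile of every array, served as an alternative. Columns of values left unused numbered 0.

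From the intensity files, control and outlier spots were left out, log2 processed signals of a probe's spots were averaged and the array's 75th percentile was subtracted. Of 30367 probes, 17 had no usable spot. A probe was tested where at least 0.5 of its spots were well above background on at least 4 of 8 arrays, and a gene took its brightest probe. Labels were compared with limma 3.58.1 (R 4.3.3; lmFit, eBayes, Benjamini-Hochberg, threshold 0.05), checked on simulated data. Arrays number 4 per group, which limits the precision.

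The genes and lists were chosen with earlier results of these data known. Named genes are the 8 genes, the 4 with the largest difference per list, the 5 most like A2m by each measure and Star, Cyp11a1 and Lhcgr; Cyp19a1, Itih2 and 7 listed macroglobulin relatives were not analysed here, and 1 gene of the receptor list, kept in its counts, is not reported here. Other list genes, markers, neighbours and array orders are named after their values were seen. Summed marker levels add linear scaled signals over a list's probes, tested or not. Probe matches, neighbours and promoters were added after the data were seen.

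Arrays with the same replicate number did not deviate together (r = 0.0444, 0.0361, 0.183 and -0.0192 for numbers 1 to 4), so the main fit has no block.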

Additional observations from a re-analysis of the deposited data

How the results depend on the processing

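Over 18 alternatives, 8 of which leave out 1 array, A2m, Pzp, Hp, Ttr and Cp stayed past the threshold in 18 of 18 and Tf in 17 of 18, while Lrp1 (18 alternatives) and Alb (17) never passed it. Centring arrays on their medians shifted the median of all genes from 0.12 to -0.05, gave 0.73 for Cp, 0.33 for Tf and -3.22e-05 for Lrp1, and turned the split of all genes from 3954 higher and 3608 lower (52.3% higher) to 2587 and 4730 (35.4%). It also left 1 of the 8 genes higher in place of 2. The normexp correction gave -2.37 for Pzp and -2.18 for Ttr. Dab1 lost its call with the normexp correction (0.30) and reversed to -0.15 in the deposited values, and the cause was not tested. Serpinc1 lost its call under 12 of 18 alternatives and C4a under 6.

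Leaving out 1 array gave -4.74 to -4.29 for A2m, -4.73 to -3.87 for Pzp, -4.05 to -3.85 for Hp, -3.38 to -3.05 for Ttr, 0.84 to 0.99 for Cp, 0.41 to 0.58 for Tf, 0.12 to 0.24 for Lrp1 and 0.42 to 2.02 for Alb. The number of macroglobulin relatives past the threshold was 0 to 3, and that of all probes 6552 (without control-labelled array 4) to 11382 (without PMSG-labelled array 4), against 8658.

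With the replicate number as a block, 7346 probes differed; the numbers did not pair the arrays. The block changed none of the calls of the 8 genes. Signals of Pzp on the PMSG-labelled arrays and of Alb on control-labelled array 2 lie near background, which limits their differences.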
